A study of Mus musculus with 14 samples.

Results

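The B cell identity genes Cd79a, Cd79b, Ms4a1, Blk, Pax5, Ebf1, Vpreb3, Fcrla and Cr2 were followed in RNA from sorted spleen T cells of leukemic mice. They are 9 of the 24091 genes in the deposited counts and were found by their symbols, and 9 of them were among the 12248 genes with enough reads to be tested. Bulk RNA-seq was made from T cells (200000 per sample) of 8 Mir142+/+BCR-ABL mice, the model of chronic phase disease (CP CML), and 6 Mir142-/-BCR-ABL mice, the model of blast crisis (BC CML), with 1 library per mouse. The mice were of the C57BL/6j background with the CD45.2 allele, of either sex and 6 to 10 weeks old. Both groups carried the SCL-tTA/BCR-ABL transgenes, in which BCR-ABL is expressed once tetracycline is withdrawn, and it had been on for 3 weeks (tet-off). Mir142 is deleted in all cells of the BC CML mice, so B cells and myeloid cells lack it as well as T cells. No mice without BCR-ABL were in this experiment. The sample names carry 1 number for each group, whose meaning is not given, so whatever it stands for cannot be told apart from genotype.

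B cells recognise antigen through the B cell receptor, a surface immunoglobulin that signals through the paired chains CD79A and CD79B. The transcription factors EBF1 and PAX5 set and hold B cell identity and switch on the receptor chains and their coreceptors. MS4A1 (CD20) and CR2 (CD21, a complement receptor) stand on the mature B cell surface, BLK is a Src family kinase below the receptor, FCRLA is an intracellular Fc receptor-like protein, and VPREB3 is a small immunoglobulin-like protein of the B lineage. Most of these genes are not used by T cells. BLK is a known exception, since it is also made by IL-17-producing gamma delta T cells.

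The promoters of 3 members are shown. Vpreb3 was the rarest member, Fcrla had the most negative difference between groups at equal Cd79a, as given further on, and Cd79a served as the reference. Each sequence runs from 250 bases before the RefSeq start to 50 bases after it, 5′ to 3′ on the strand of the gene, in build GRCm38.p6. Capitals mark the octamer ATGCAAAT or its complement, which is bound by OCT factors and is known from immunoglobulin promoters.
Vpreb3, chr10:75948050-75948349, plus strand: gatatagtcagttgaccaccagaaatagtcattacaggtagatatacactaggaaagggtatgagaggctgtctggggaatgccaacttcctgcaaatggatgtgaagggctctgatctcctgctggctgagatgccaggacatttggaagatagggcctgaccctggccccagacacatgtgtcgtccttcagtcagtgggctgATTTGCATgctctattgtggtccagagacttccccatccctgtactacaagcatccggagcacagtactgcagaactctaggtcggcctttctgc
Cd79a, chr7:24897247-24897546, plus strand: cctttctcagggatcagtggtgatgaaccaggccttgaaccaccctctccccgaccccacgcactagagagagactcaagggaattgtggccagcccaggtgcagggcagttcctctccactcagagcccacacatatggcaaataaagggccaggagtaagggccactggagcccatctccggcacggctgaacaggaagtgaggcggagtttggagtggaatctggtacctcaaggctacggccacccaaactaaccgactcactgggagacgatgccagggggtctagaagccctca
Fcrla, chr1:170927534-170927833, minus strand: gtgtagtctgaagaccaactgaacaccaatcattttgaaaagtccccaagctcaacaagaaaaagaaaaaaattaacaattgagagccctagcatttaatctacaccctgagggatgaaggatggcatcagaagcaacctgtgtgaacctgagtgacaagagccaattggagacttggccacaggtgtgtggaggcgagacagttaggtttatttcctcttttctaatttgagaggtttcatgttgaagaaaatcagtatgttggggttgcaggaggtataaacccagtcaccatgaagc
The RefSeq table held 7 such windows for 6 members (Cd79a, Pax5, Ebf1, Vpreb3, Fcrla and Cr2), and the octamer was found in that of Vpreb3 alone, 37 bases before the start. On either strand it occurred in 1.74% of all 32851 promoters. The EBF1 motif (TCCC and GGGA with 2 bases between them, which reads alike on both strands) was found in none of the 7 windows and in 0.904% of all promoters. A match is a description of the letters in these windows.

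The libraries held 15703702 to 19914531 reads on genes. Mir142, the deleted gene, had 302 to 650 reads in the CP CML mice and 0 in every BC CML mouse. The T cell label was checked on 15 T cell identity genes such as Cd3e and Lck. Their summed level was 5822 to 6518 CPM in CP CML and 6949 to 7341 CPM in BC CML, without overlap. CPM are read counts scaled to a common library size after TMM normalization. In the test between groups given below, 7 of the 15 were higher, 2 were lower and 6 did not pass. Cd8a (log2 fold change 0.87) and Cd3g (0.59) rose, Cd4 (-0.73) and Cd247 (-0.32) fell, and Cd3e and Lck did not pass. The higher sum was thus not shared by all of these genes. The summed level of the 9 B cell genes was 36.8 to 130 CPM in CP CML (median 66.0) and 63.6 to 396 CPM in BC CML (median 155.6), so the groups overlapped. In BC CML the highest sums were those of mice 6, 2 and 5, and in CP CML those of mice 1 and 8. In bulk RNA, fewer cells of a type and less RNA per cell cannot be told apart.

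Cd79a, 1 of the 2 signalling chains of the B cell receptor (chromosome 7, 24897511 to 24902197, plus strand, mm10), was higher in BC CML. Its level was 4.85 to 20.9 CPM in the CP CML mice (median 9.33) and 12.4 to 75.8 CPM in the BC CML mice (median 32.0). CP CML mice 1 and 8 stood within the BC CML range, and BC CML mice 3 and 4 within that of CP CML. The means were 10.8 ± 5.10 CPM (SD, n = 8) and 35.9 ± 23.3 CPM (SD, n = 6), a log2 fold change of 1.73 (SE 0.41, adjusted p = 0.0024 by the quasi-likelihood test of edgeR across all tested genes). Cd79b, its partner chain (chromosome 11, minus strand), had 13.98 to 27.7 CPM in CP CML (median 17.4) and 12.8 to 70.7 CPM in BC CML (median 26.8). Here 3 BC CML mice, numbers 1, 3 and 4, lay within or below the CP CML range. Its log2 fold change of 0.75 (SE 0.35) did not pass the test (adjusted p = 0.0753 by edgeR), and 1 mouse moved it in either direction. It passed at 0.91 without BC CML mouse 3 (adjusted p = 0.0248), and was 0.35 without BC CML mouse 6 (adjusted p = 0.280).

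**Figure D1:**
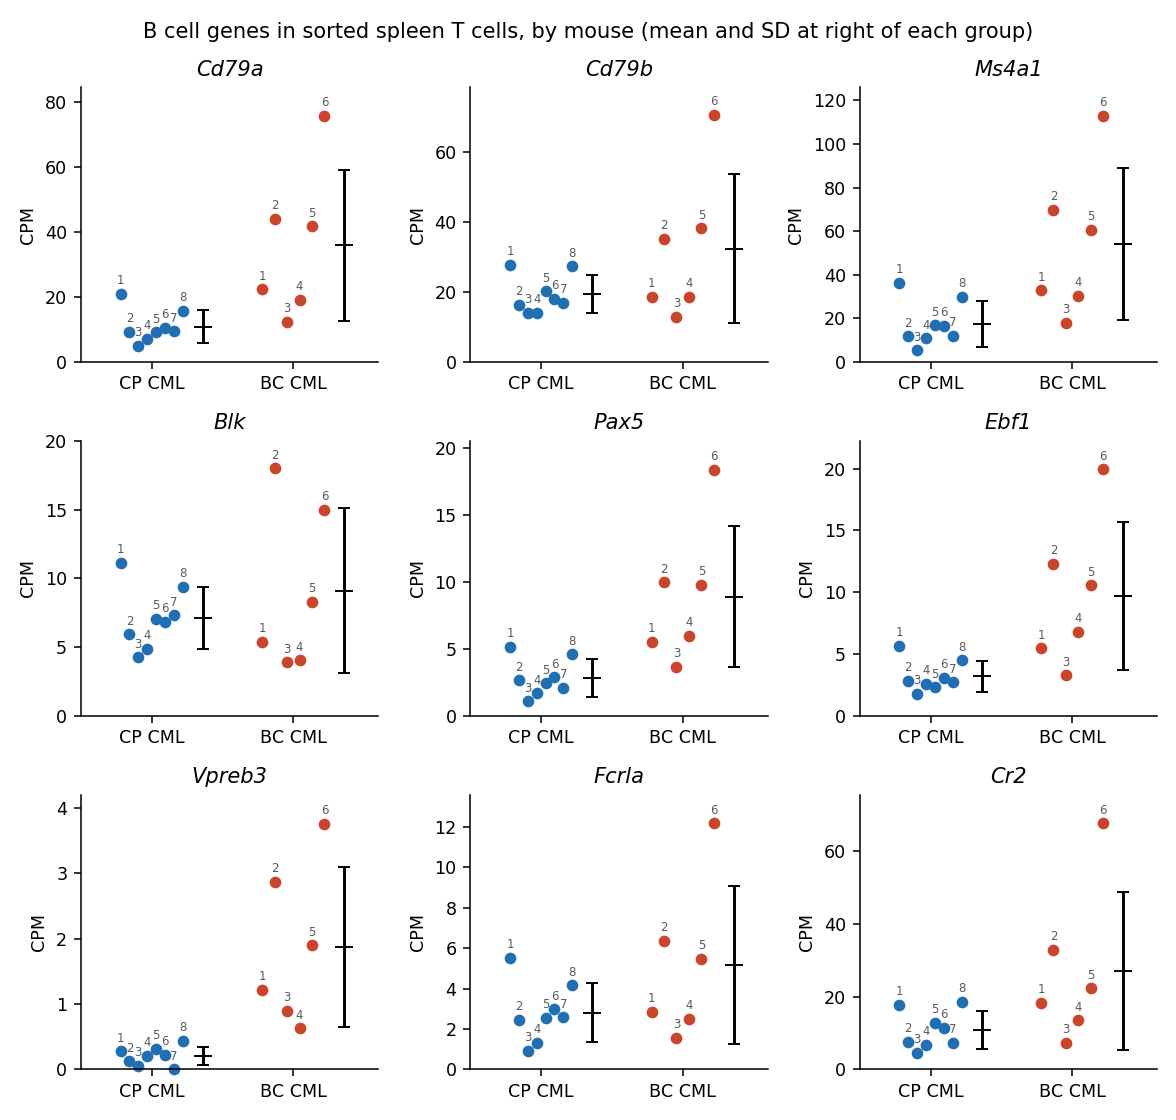
Level of each of the 9 B cell genes (CPM, linear axis) in every mouse, with the replicate number above each point and the group mean ± SD as a black bar at its right. BC CML mice 2, 5 and 6 sit highest for most of the genes, and the groups are apart only for Vpreb3, at 0.00 to 0.44 CPM in CP CML and 0.63 to 3.75 CPM in BC CML.

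Of the mature surface genes, Ms4a1 (chromosome 19, minus strand) had 5.31 to 36.4 CPM in the CP CML mice (median 14.1) and 17.8 to 113 CPM in the BC CML mice (median 46.7). The groups overlapped through CP CML mice 1 and 8 and BC CML mice 1, 3 and 4. It was higher in BC CML by 1.64 on the log2 scale (SE 0.47, adjusted p = 0.0079 by edgeR). Cr2 (chromosome 1, minus strand) had 4.54 to 18.6 CPM in CP CML (median 9.40) and 7.29 to 67.6 CPM in BC CML (median 20.3). BC CML mouse 6 stood highest at 67.6 CPM, with mouse 2 next at 32.8 CPM, and mice 1, 3 and 4 stood within the CP CML range. The log2 fold change of Cr2 was 1.32 (SE 0.47, adjusted p = 0.0246 by edgeR), and without mouse 6 it was 0.80 and missed the test (adjusted p = 0.0945).

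Both identity factors were higher in BC CML. Pax5, which represses the genes of other lineages in B cells (chromosome 4, minus strand), had 1.07 to 5.13 CPM in CP CML (median 2.52) and 3.67 to 18.4 CPM in BC CML (median 7.88). Its log2 fold change was 1.67 (SE 0.38, adjusted p = 0.0013 by edgeR). Ebf1, the factor that opens the B lineage programme (chromosome 11, plus strand), had 1.79 to 5.67 CPM in CP CML (median 2.75) and 3.25 to 19.95 CPM in BC CML (median 8.68), with a log2 fold change of 1.61 (SE 0.36, adjusted p = 0.0012 by edgeR). For each of them CP CML mice 1 and 8 were above the lowest BC CML mouse, number 3, and the other CP CML mice were below it.

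Blk did not pass the test between groups. It had 4.24 to 11.1 CPM in CP CML (median 6.94) and 3.88 to 18.0 CPM in BC CML (median 6.83), a log2 fold change of 0.36 (SE 0.36, adjusted p = 0.397 by edgeR). Unlike the other 8 genes, it was highest in BC CML mouse 2 and not in mouse 6. The difference rested on these mice, at 0.052 without mouse 2 (adjusted p = 0.902) and 0.15 without mouse 6 (adjusted p = 0.734). Fcrla had 0.92 to 5.51 CPM in CP CML (median 2.56) and 1.57 to 12.2 CPM in BC CML (median 4.15), with 4 of the 6 BC CML mice at or below the highest CP CML mouse, and its log2 fold change of 0.88 (SE 0.45) missed the test (adjusted p = 0.100 by edgeR). It passed at 1.10 without CP CML mouse 1 (adjusted p = 0.0452) and at 1.07 without BC CML mouse 3 (adjusted p = 0.0398), and was 0.42 without BC CML mouse 6 (adjusted p = 0.380).

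Vpreb3 was the rarest member and had the largest fold change among the 9. It had 0 to 7 reads in the CP CML mice, or 0.00 to 0.44 CPM (median 0.21), and 12 to 73 reads in the BC CML mice, or 0.63 to 3.75 CPM (median 1.56), with no overlap. The log2 fold change was 3.18 (SE 0.49, adjusted p = 2.1e-05 by edgeR). No CP CML mouse reached the level that the filter on low counts asked for (0.545 CPM), while 6 of the 6 BC CML mice did, so Vpreb3 was tested only because of its level in BC CML.

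In counts, 6 of the 9 were higher, 0 were lower and 3 did not pass. Without Vpreb3, which its level in BC CML alone brought into the test, 5 of the other 8 were higher. Over all tested genes 32.6% were called higher and 32.7% lower, so many genes outside the B lineage also differed. The median log2 fold change of the 9 was 1.61, against -0.01 over all tested genes. The mice of the groups were fully apart for Vpreb3 and for 0 of the other 8, and 19.3% of all tested genes had every BC CML mouse above every CP CML mouse. The spread of the members between mice of 1 group was wide. The SD of log2 CPM was 0.38 to 0.87 in CP CML and 0.81 to 1.09 in BC CML, where the median tested gene had 0.13 in each.

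Per kilobase of the deposited gene length, which allows levels of different genes to be compared, the receptor chains led. In CP CML the order of mean levels was Cd79b (15.8 CPM per kb), Cd79a (8.19), Ms4a1 (3.95), Blk (2.88), Pax5 (2.34), Cr2 (1.74), Fcrla (1.63), Ebf1 (0.37) and Vpreb3 (0.34). In BC CML it was Cd79a (27.1 CPM per kb), Cd79b (26.4), Ms4a1 (12.3), Pax5 (7.42), Cr2 (4.33), Blk (3.70), Vpreb3 (3.13), Fcrla (2.99) and Ebf1 (1.12). The ranges over mice of each gene and its neighbour in either order overlapped. Cd79b stood above Cd79a in CP CML and level with it in BC CML, and the mean of Blk was above that of Pax5 in CP CML and below it in BC CML. Blk was above Pax5 in every CP CML mouse but number 8, where they were level, and below it in every BC CML mouse. The mean of Blk was also below that of Cr2 in BC CML, but Blk stood above Cr2 in mice 2 and 3, and Cr2 was highest in mouse 6.

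Within each group the members moved together from mouse to mouse. Over the 6 BC CML mice, Pearson r of log2 CPM between 2 members was 0.85 to 1.00 in the 36 pairs (median 0.97), and Spearman's rho was 0.77 to 1.00 (median 0.94). For 36 of the 36 pairs r had an adjusted p below 0.05, and for 32 rho did (exact two-sided permutation, Benjamini-Hochberg over the 72 comparisons of both groups). The largest adjusted p was 0.0492, for Cd79b with Blk. Cd79a and Ms4a1 were the closest pair (r = 0.998, rho = 1.00), and r was 0.993 without BC CML mice 6 and 3, the farthest from the median of Cd79a. Over the pairs, r without the 2 farthest mice was 0.78 to 1.00.

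Over the 8 CP CML mice, r was 0.83 to 0.98 in the 28 pairs without Vpreb3 (median 0.94, rho 0.69 to 0.98), and 28 of the 28 had an adjusted p below 0.05 for r and 24 for rho by the exact permutation test. The closest pair was Cd79a with Pax5 (r = 0.982, rho = 0.929), at r = 0.970 without mice 1 and 3. Without the 2 farthest mice the 28 values were 0.38 to 0.98, and the lowest, for Cd79b with Ebf1, shows that this relation rested on CP CML mice 1 and 8. The 8 pairs with Vpreb3 had r of 0.49 to 0.79, and 1 of them passed, Vpreb3 with Cr2 (r = 0.792, adjusted p = 0.0234, rho = 0.857, exact permutation), while rho passed for 2. Vpreb3 had 7 reads or fewer in each CP CML mouse, so the depth limits these 8 values. The values of a mouse come from 1 library and share its depth and scaling. Dividing by library size alone gave a median r of 0.93 in CP CML and 0.97 in BC CML. That is nearly the same scaling, since the TMM factors were 0.982 to 1.023, so it cannot show the part of shared depth or scaling.

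**Figure D2:**
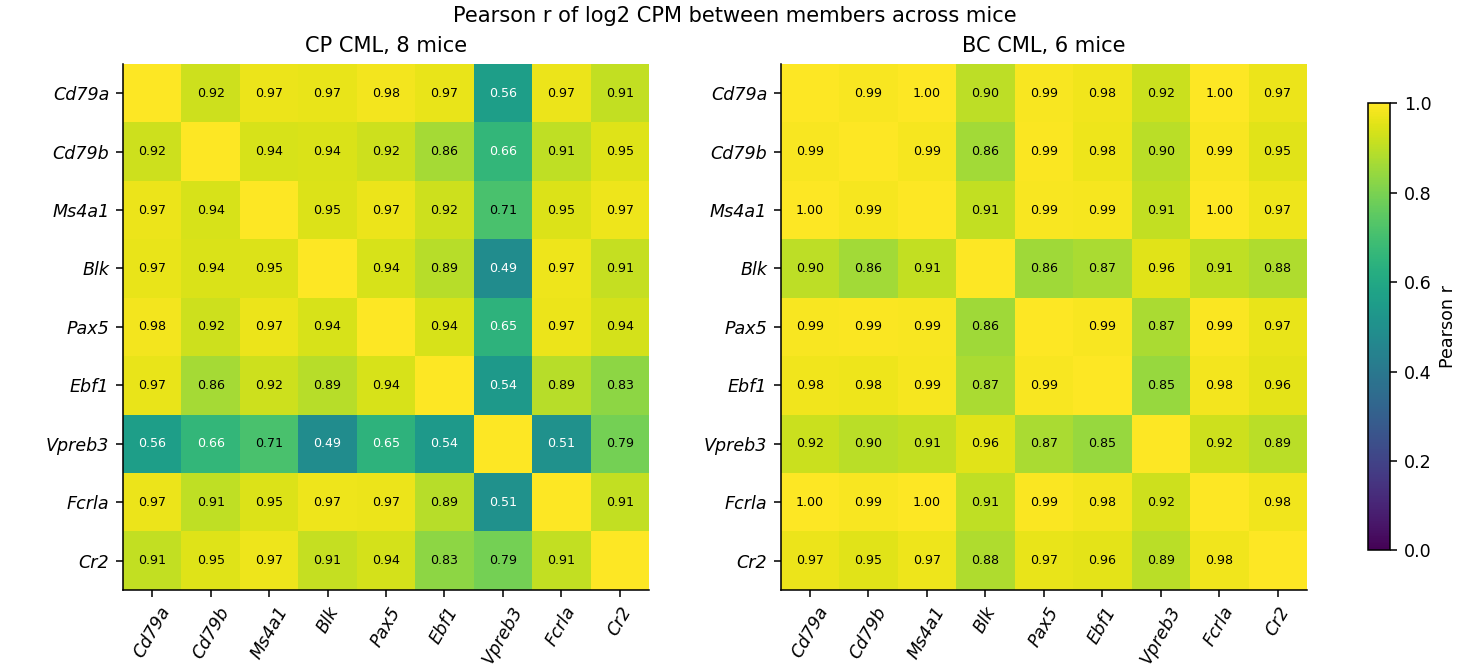
Pearson r of log2 CPM for each pair of the 9 genes across the 8 CP CML mice (left) and the 6 BC CML mice (right), on a colour scale from 0 to 1. The values lie between 0.83 and 0.98 in CP CML outside the Vpreb3 row, which holds 0.49 to 0.79, and between 0.85 and 1.00 in BC CML, where the rows of Blk and Vpreb3 hold the lowest.

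To place this beside the other genes, each tested gene was fitted with the log2 CPM of Cd79a of the mouse and the group as terms. The slope says how many log2 units a gene moves between mice of 1 group for each log2 unit of Cd79a. The slope was positive and passed the test for 8 of the 8 other members, and for 1.94% of the other tested genes (238 of 12247, members included, with 74 negative). The members' slopes were 0.80 for Cd79b, 0.83 for Blk, 0.90 for Ebf1, 0.93 for Pax5, 0.95 for Vpreb3, 1.09 for Cr2, 1.11 for Ms4a1 and 1.16 for Fcrla. Their SEs were 0.06 to 0.19, and the largest adjusted p was 0.0073 (Vpreb3, edgeR). The median slope of all tested genes was 0.0004. With CP CML mice alone 7 of the 8 passed, all but Vpreb3 (adjusted p = 0.999), and with BC CML mice alone 7 passed, all but Blk (adjusted p = 0.0844). Without BC CML mouse 6, 7 of the 8 passed, all but Vpreb3 (adjusted p = 0.0831), and 8 of the 8 passed without each of the other mice. The slopes of the groups were not shown to differ for any member after adjustment (interaction term, adjusted p = 1.00 for each by edgeR). Only Cd79b and Ms4a1 had an unadjusted p below 0.05 in it. The slope of Cd79b was 0.56 in CP CML alone and 0.94 in BC CML alone, with a BC CML minus CP CML difference of 0.39 (SE 0.10), and the difference for Ms4a1 was -0.30 (SE 0.12). Over all genes, 2 of the 12247 genes passed that test, with 373 at an unadjusted p below 0.05.

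**Figure D3:**
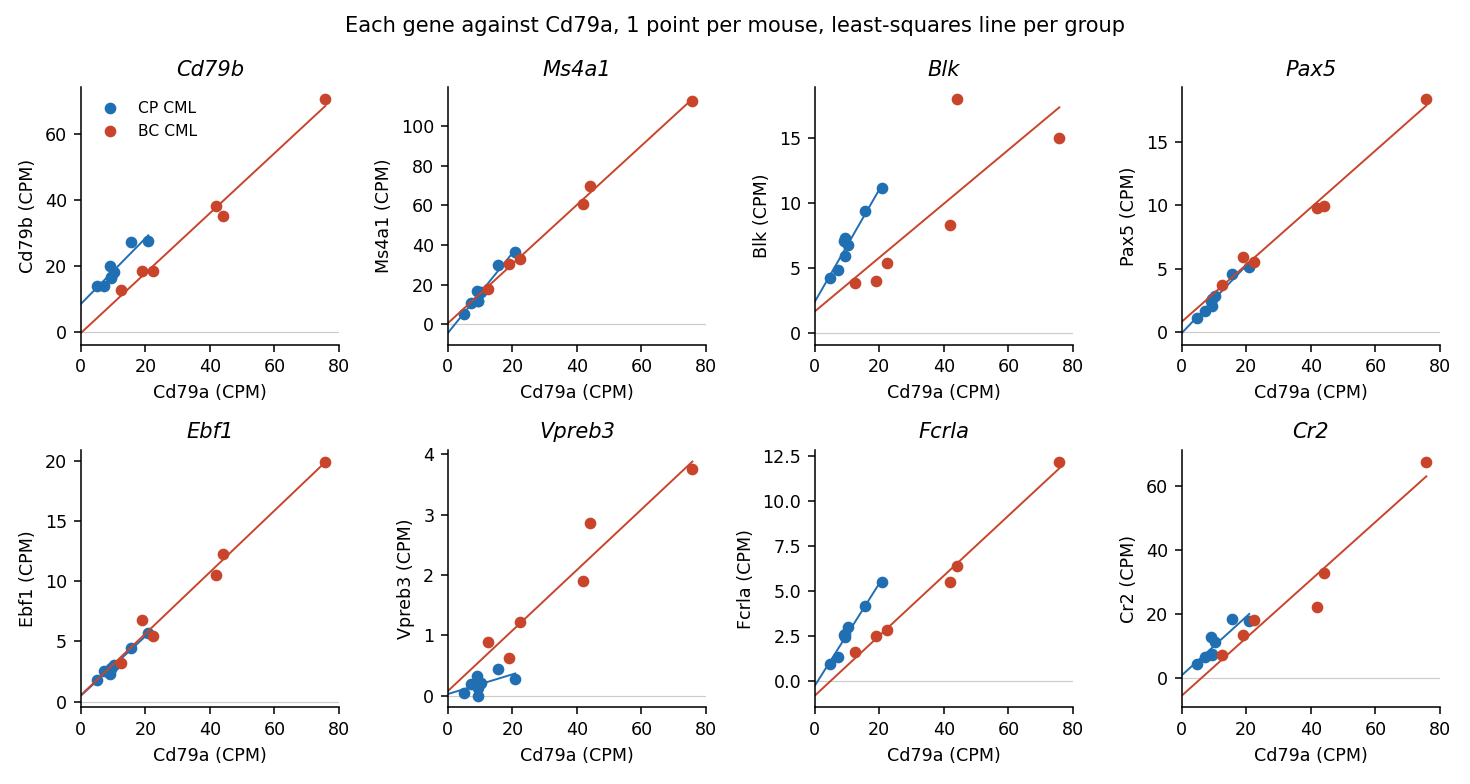
CPM of 8 members against the CPM of Cd79a, 1 point per mouse, with a least-squares line for each group drawn from 0 to the highest Cd79a of that group. For Ms4a1, Pax5 and Ebf1 the lines of the groups lie close together, while for Cd79b, Blk and Fcrla the CP CML points lie above the BC CML line and for Vpreb3 below it.

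The proportions among the members were not all the same in the 2 groups. For Pax5 the proportion to Cd79a overlapped between groups, with 0.22 to 0.29 reads per Cd79a read in CP CML and 0.23 to 0.31 in BC CML. Ebf1 had 0.25 to 0.37 and 0.24 to 0.36, and Ms4a1 1.09 to 1.90 and 1.44 to 1.59. At equal Cd79a their log2 differences of BC CML minus CP CML were 0.12 (Pax5, SE 0.16), 0.05 (Ebf1, SE 0.16) and -0.20 (Ms4a1, SE 0.14), and none passed the test (adjusted p = 0.564, 0.819 and 0.240 by edgeR).

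Cd79b, Blk and Fcrla had fewer reads per Cd79a read in every BC CML mouse than in any CP CML mouse. Cd79a itself was higher in BC CML, so a gene with a steady level also loses reads per Cd79a read. The share of all tested genes apart in this way was not computed. For Cd79b there were 1.32 to 2.89 reads per Cd79a read in CP CML (mean 1.93 ± 0.46, SD, n = 8) and 0.80 to 1.03 in BC CML (mean 0.91 ± 0.09, SD, n = 6). For Blk there were 0.53 to 0.87 and 0.20 to 0.41, and for Fcrla 0.18 to 0.29 and 0.13 to 0.16. At equal Cd79a the log2 difference was -0.71 for Cd79b (SE 0.16, adjusted p = 0.0012), -1.10 for Blk (SE 0.24, adjusted p = 0.0012) and -1.13 for Fcrla (SE 0.17, adjusted p = 4.1e-05), all by edgeR. These fits use 1 slope for both groups, and the value of Cd79b rests on that, since its slopes within the groups were 0.56 and 0.94. Each kept its sign and passed without each of the 14 mice in turn. Cr2 was lower at equal Cd79a by a smaller amount, at -0.62 (SE 0.21, adjusted p = 0.0262), with 0.77 to 1.42 reads per Cd79a read in CP CML and 0.53 to 0.89 in BC CML, and passed in 12 of the 14 fits without 1 mouse. It missed the test without CP CML mouse 8 (-0.54, adjusted p = 0.0691) and without BC CML mouse 3 (-0.52, adjusted p = 0.128).

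For Vpreb3 the fitted difference had the other sign. It had 0.00 to 0.04 reads per Cd79a read in CP CML and 0.03 to 0.07 in BC CML, and its log2 difference at equal Cd79a was 1.54 (SE 0.46, adjusted p = 0.0099 by edgeR), or 1.22 without BC CML mouse 3, where it missed the test (adjusted p = 0.0933). Vpreb3 entered the test only through its level in BC CML, so these values describe it and support no difference. At equal Cd79a, 25.2% of all tested genes passed with a higher level in BC CML and 24.3% with a lower one, against 4 lower and 0 higher among the 7 members other than Vpreb3 and Cd79a. With Ms4a1 in place of Cd79a, Blk (-0.88) and Fcrla (-0.85) still passed, while Cd79b (-0.48, adjusted p = 0.0589) and Cr2 (-0.40, adjusted p = 0.0688) did not. With Pax5 as the reference the 4 were again lower (largest adjusted p = 0.0234).

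**Figure D4:**
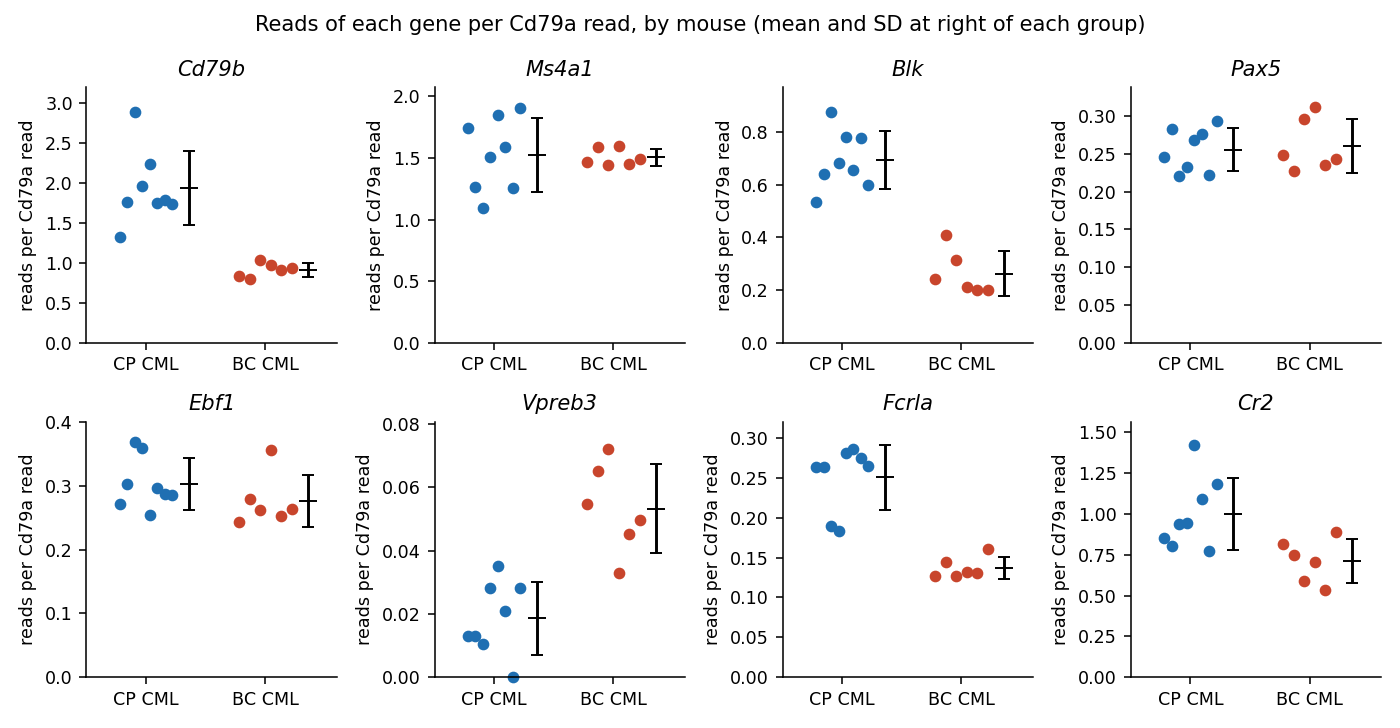
Reads of 8 members per read of Cd79a in every mouse, with the group mean ± SD as a black bar at the right of each group (blue CP CML, red BC CML). The groups are apart for Cd79b, Blk and Fcrla, which are lower in BC CML, and share their range for Pax5, Ebf1 and Ms4a1.

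The lines of the plots of each member against Cd79a differ in where they meet the axis. In CP CML the line of Cd79b met it at 8.54 CPM (SE 1.85, n = 8) with a slope of 0.99 CPM per CPM of Cd79a (SE 0.16). In BC CML it met it at -0.28 CPM (SE 2.32, n = 6) with a slope of 0.91 (SE 0.06). For Blk the intercepts were 2.41 CPM (SE 0.52) and 1.66 CPM (SE 3.24), and the slopes 0.43 (SE 0.04) and 0.21 (SE 0.08). For Fcrla the intercepts were -0.28 CPM (SE 0.24) and -0.83 CPM (SE 0.35), and the slopes were 0.28 (SE 0.02) and 0.17 (SE 0.01). These lines are a description and were not tested.

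Blk was highest relative to Cd79a in BC CML mouse 2, with 0.41 reads per Cd79a read against 0.20 to 0.31 in the other BC CML mice, a gap that did not pass Dixon's test for an outlier. Of the 9 tested genes of IL-17-producing gamma delta T cells, 5 were highest among BC CML mice in that mouse and 4 were not. Sox13 was at 7.29 CPM there and at 0.47 to 1.90 CPM in the other BC CML mice, and Cd163l1, a scavenger receptor of these cells, at 122 CPM against 20.8 to 38.4. The 4 others were 5830411N06Rik (118 CPM there and 208 CPM in mouse 3), Il1r1 (16.8 CPM there and 26.3 CPM in mouse 5), Maf, highest in mouse 5, and Ccr6, highest in mouse 6. Over the list of 11 such genes, 9 were tested, 6 were higher in BC CML and 1 (Ccr6) was lower, against 32.6% and 32.7% of all tested genes. The summed level of these genes was 85.7 to 114 CPM in CP CML and 199 to 390 CPM in BC CML. Their part in the Blk values was not tested.

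The other genes of the B cell were taken from fixed lists. Their counts stand beside 32.6% of all tested genes called higher, 32.7% lower and 1.94% with a positive slope. Of 16 B cell surface genes, 13 were higher in BC CML and 1 was lower, and 13 had a positive slope on Cd79a (median slope 0.77). Fcmr (log2 fold change 1.96) and Cd22 (1.29) rose, and so did Ly6d (2.43) and Fcgr2b (2.02), which were also higher at equal Cd79a (1.00 and 1.00). Tnfrsf13b, which encodes the receptor TACI, fell (-0.80). Fcrl5 did not pass (-0.58, adjusted p = 0.316) but was lower at equal Cd79a (-2.74, adjusted p = 1.1e-06 by edgeR). Of 15 genes of B cell receptor signalling, 11 were higher and 0 lower, and 8 had a positive slope, among them Syk (0.71) and Btk (0.75), the kinases that act after the receptor. Malt1, Ptpn6 and Dapp1 were higher with slopes between -0.03 and 0.06 that did not pass.

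Of 10 B lineage transcription factors, 7 were higher and 1 (Bach2, log2 fold change -0.27) was lower. Spib and Tcf4 are also used by plasmacytoid dendritic cells. Spib (1.85) and Bcl11a (1.75) followed Cd79a with slopes of 1.02 and 1.060, close to those of Pax5 and Ebf1. Tcf4 was at 5.46 to 11.6 CPM in CP CML and 48.8 to 68.4 CPM in BC CML (log2 fold change 2.75), and its slope of 0.21 did not pass (adjusted p = 0.114 by edgeR). Of 10 MHC class II genes, which B cells share with dendritic cells and macrophages, 8 were higher and 9 had a positive slope (median 0.92). Cd74 had a slope of 1.01 and a difference at equal Cd79a of 0.20 (adjusted p = 0.157), while H2-Ob, the beta chain of the peptide loading regulator H2-O, was lower in BC CML (-1.04) and more so at equal Cd79a (-2.15, adjusted p = 1.3e-06 by edgeR). The 6 immunoglobulin constant genes of the lists were not found by symbol in the counts, so they could not be analysed.

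**Figure D5:**
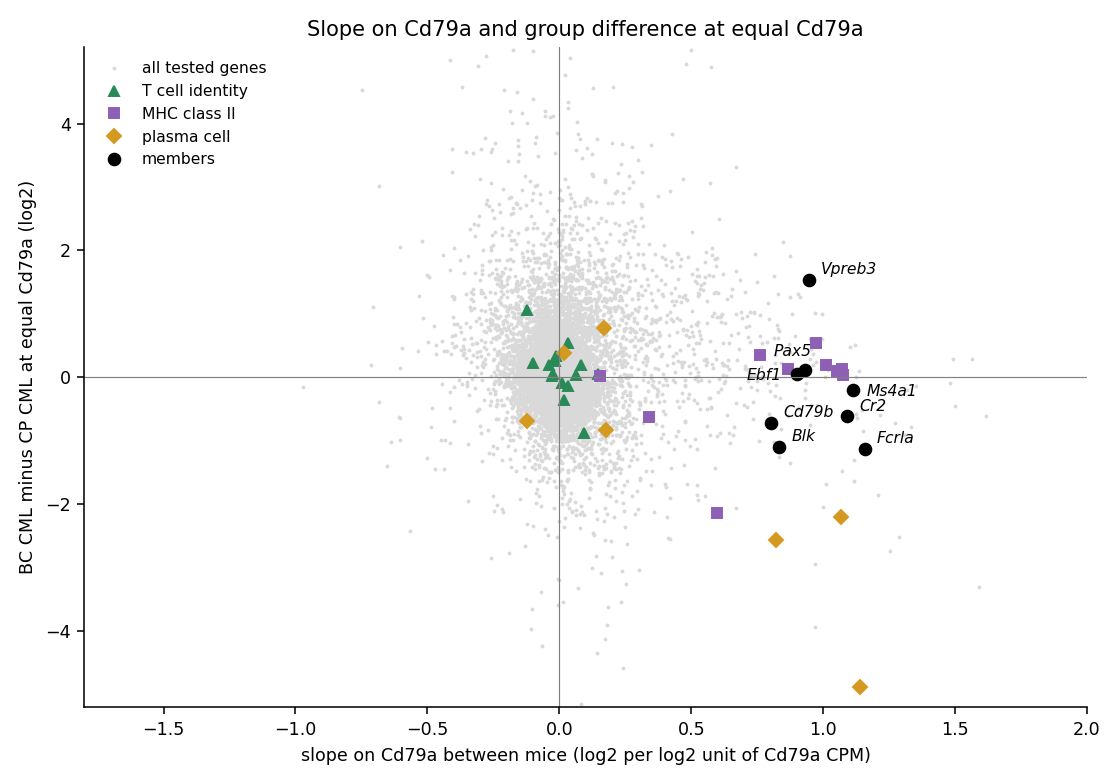
Slope on Cd79a between mice (x axis, log2 units per log2 unit of Cd79a CPM) against the BC CML minus CP CML difference at equal Cd79a (y axis, log2) for all tested genes but 22 outside the axes (grey), with 8 members in black and 3 gene lists in colour. The members lie between slopes of 0.80 and 1.16, T cell identity genes lie near a slope of 0, and the members spread from -1.13 (Fcrla) to 1.54 (Vpreb3) on the y axis.

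The genes outside the members whose mouse-to-mouse pattern was most like theirs were ranked by Pearson r between within-group deviations of log2 CPM and the mean deviation of the 9 members over the 14 mice, as a description. Among the first 10 were H2-DMb2 (r = 0.994), Scd1 (0.982), Bcl11a (0.978), Spib (0.974), H2-DMb1 (0.968), Fcmr (0.966), Cd74 (0.966), Cd22 (0.963) and Wdfy4 (0.963). Scd1, a fatty acid desaturase, had the highest fold change of those named, with 6.59 to 24.9 CPM in CP CML and 39.7 to 167 CPM in BC CML. Wdfy4 did not pass the test of the groups (log2 fold change 0.81, adjusted p = 0.0663 by edgeR). By single member, the nearest gene was H2-DMb2 for Cd79a, Ms4a1 and Cr2 (r = 0.985, 0.989 and 0.971), Cd22 for Cd79b (0.970), Scd1 for Pax5 (0.981), Mreg for Ebf1 (0.966), Wdfy4 for Fcrla (0.984), Pik3c2b for Blk (0.959) and Rarg for Vpreb3 (0.882).

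Marker lists of other cells were also counted. Over all tested genes 32.6% were called higher in BC CML and 32.7% lower, so a count near these shares says little about a list. Of 15 neutrophil and monocyte genes 14 were higher in BC CML, with a summed level of 175 to 865 CPM in CP CML and 1290 to 2678 CPM in BC CML, and 4 had a positive slope on Cd79a. Of 9 dendritic cell genes 5 were tested, 4 were higher, 0 were lower and 1 (Flt3) had a positive slope, and the summed level was 70.0 to 121 CPM in CP CML and 223 to 389 CPM in BC CML, without overlap. Most of that sum was Ccr9, which T cells also use, at 57.7 to 110 CPM in CP CML and 164 to 267 CPM in BC CML, so it is not a measure of dendritic cells alone. Itgax (CD11c) was at 6.06 to 12.8 CPM in CP CML and 29.9 to 110 CPM in BC CML (log2 fold change 2.74). The plasmacytoid genes Siglech and Cox6a2, too low to be tested, had 0 to 5 and 0 to 3 reads in CP CML and 8 to 27 and 10 to 39 in BC CML. Of 10 erythroid genes 5 were tested and 2 were higher. Of 6 natural killer cell genes 6 were higher and 0 had a slope that passed, and of 7 macrophage genes 6 were higher and 0 had one. Of 15 T cell identity genes 7 were higher, 2 were lower and 0 had a slope that passed (median slope 0.01). The part of other cells in the values of the B cell genes was not tested.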

How the data were processed

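Spleen T cells of 8 CP CML and 6 BC CML mice were profiled by bulk RNA-seq with paired reads of 101 bases (Kapa mRNA HyperPrep libraries, NovaSeq6000). The authors trimmed reads with Trimmomatic and FASTP, aligned them to mm10 with STAR 2.6.0, counted them per gene with HTSeq 0.11.1 and deposited raw counts of 24091 genes. The annotation and strand setting are not given in the sources used here. In GENCODE vM21 the loci of Ms4a1, Pax5, Ebf1 and Vpreb3 overlap a gene on the other strand and those of Pax5 and Fcrla a short RNA gene or pseudogene on their own, so some reads may belong to either.

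Columns were assigned to mice through their names. Counts were analysed with edgeR 4.0.16 (limma 3.58.1, R 4.3.3): filterByExpr on the group (12248 genes), TMM scaling, glmQLFit with robust estimation and glmQLFTest of BC CML over CP CML at a Benjamini-Hochberg adjusted p of 0.05. The study used the likelihood ratio test of edgeR, which was an alternative, as were DESeq2 1.42.0, RLE factors, library size alone, other filters, a block for the replicate number, and leaving out 1 mouse at a time. SEs come from the log2 fold change and F. Log2 CPM used a prior count of 2. Correlations were tested exactly over all 720 or 40320 pairings of the mice. The fits with Cd79a, Ms4a1 or Pax5 as a covariate, within 1 group or with an interaction were chosen after seeing the data. The fits were checked on simulated counts, and the correlation test on simulated normal values for a group of the size of CP CML alone.

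Genes named were the 9 members, genes of the lists (written from general knowledge), Mir142, and the 10 genes most like the members plus the nearest gene of each. The members and lists were chosen with earlier results of these data known. Each mouse is a biological replicate. Chi-square values between replicates were 3.01 to 22.7 per degree of freedom, so no library repeated another. Python with numpy, scipy and matplotlib was used for correlations and figures. The single-cell data of the study were not analysed here. Some genes of the lists and of the ranking are not reported here.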

Additional observations from a re-analysis of the deposited data

Results flagged for a closer look

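Dixon's test for a value far from the rest of its group was run on 38 groups of values (CPM of each member, its reads per Cd79a read, the summed members and the total reads, in each group), and 2 passed, where chance gives about 1 in 20 groups (1.9 here). BC CML mouse 4 had 0.356 reads of Ebf1 per Cd79a read, above the other BC CML mice at 0.244 to 0.279. BC CML mouse 2 had the fewest reads of its group in total, 16145537 against 18319039 to 19399720.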

How the results depend on the processing

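The 6 members called higher were 7 with the likelihood ratio test (Cd79b added, adjusted p = 0.0441) and with the block (Fcrla added, adjusted p = 0.0499), 5 when 6 mice had to exceed 1 CPM (which left Vpreb3 untested), and 6 with DESeq2, RLE factors, library size alone or no filter. Leaving out each mouse gave 5 to 8 members higher and 0 lower, 36 to 38 genes of the B cell lists higher and 7 to 9 lower, 7 to 8 members with a slope that passed, and a median r of 0.894 to 0.947 in CP CML and 0.952 to 0.981 in BC CML. On the linear scale, with another prior count and under the other scalings the median r was 0.923 to 0.949 in CP CML and 0.970 in BC CML. Replicate numbers did not pair the mice (mice with 1 number correlated at -0.27 to 0.36), and Fcrla was the only member whose call the block changed.

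The fits with a member as a covariate, chosen after seeing the data, changed most. The 1 member called higher with Cd79a, Ms4a1 or Pax5 as the covariate was Vpreb3 in each fit. It entered the test only through its level in BC CML, so this supports no difference. Members called lower were 4, 2 and 4. Genes of the B cell lists called higher were 19, 21 and 19 in place of 38, and those called lower 13, 12 and 14 in place of 8. With Cd79a the log2 difference turned negative for Cd79b (-0.71), Ms4a1 (-0.20), Blk (-1.10), Fcrla (-1.13) and Cr2 (-0.62). With Ms4a1 it did for Cd79b (-0.48), Blk (-0.88), Fcrla (-0.85) and Cr2 (-0.40). With Pax5 it did for Cd79a (-0.042), Cd79b (-0.71), Ms4a1 (-0.29), Blk (-1.03), Ebf1 (-0.0017), Fcrla (-1.18) and Cr2 (-0.67). By construction these fits compare the groups at equal level of the covariate, with a fitted slope. Vpreb3, at 0 to 7 reads in CP CML, is the member most limited by depth.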

Other observations

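Plasma cell and germinal centre genes were also measured, beside 32.6% of all tested genes called higher and 32.7% lower. Jchain, which joins secreted immunoglobulin chains in plasma cells, was at 6.69 to 63.6 CPM in the CP CML mice (median 19.5) and at 1.63 to 4.05 CPM in the BC CML mice (median 2.83). It was lower in BC CML by a log2 fold change of -3.22 (SE 0.56, adjusted p = 0.00022 by the quasi-likelihood test of edgeR), while its slope on Cd79a was positive (1.14, adjusted p = 0.0091). Mzb1 (slope 1.07) and Sdc1 (slope 0.82) likewise followed Cd79a, and at equal Cd79a their differences were -2.20 and -2.57. Of 8 plasma cell genes 7 were tested, 2 were higher and 4 lower. The factors Prdm1 (-0.88) and Irf4 (-0.54), which T cells also use, fell with slopes that did not pass. Gcsam, a germinal centre gene, was at 0.00 to 0.55 CPM in CP CML and 0.44 to 4.06 CPM in BC CML (log2 fold change 3.37). Of 5 marginal zone B cell genes 3 were higher, S1pr3 (1.88) among them, and 2 were lower.

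Of 6 early B cell genes, 5 were close to 0 and were not tested. Vpreb1, Vpreb2 and Igll1, parts of the surrogate light chain of the pre-B cell receptor, had at most 7 reads in any mouse. Rag2 had at most 5, and Rag1 had 0 to 1 in CP CML and 0 to 30 in BC CML. Dntt, which adds bases at antigen receptor gene joints, was well above these at 7.36 to 9.92 CPM in CP CML and 5.93 to 16.6 CPM in BC CML, and did not pass (log2 fold change 0.25, adjusted p = 0.183 by edgeR).

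Some genes of myeloid and progenitor cells followed Cd79a between mice. Ctsg (slope 1.49), Mpo (1.62) and Prtn3, which encode granule proteins of early neutrophils, passed (adjusted p = 0.00098, 0.0321 and 0.0067 by edgeR), as did the cytokine receptor gene Flt3 (1.33, adjusted p = 1.8e-05), while S100a8 and Lyz2 did not (adjusted p = 0.487 and 0.308).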
